A study of Saccharomyces cerevisiae with 12 samples.

Results

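The genes described here are the 34 listed members of the seripauperin (PAU) family, the TIR and DAN cell wall mannoprotein genes and 4 classic hypoxic genes of budding yeast. They were chosen by name: PAU1 to PAU24, TIR1 to TIR4, DAN1, DAN4, ANB1, HEM13, AAC3 and COX5B. Rows were found for 33 of them among the 6177 genes of the table, and 31 of 5890 genes tested were members: 22 PAU genes, 6 TIR and DAN genes and 3 hypoxic genes. PAU9 was not analysed here. PAU18 and HEM13 had too few values for the test and are given as values.

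Total RNA of cells labelled san1 and of cells labelled SAN1 was hybridised together on 12 arrays with 2 channels, 6 from cells grown in the medium called YC and 6 from cells grown in YEPD, a rich medium. SAN1 encodes a nuclear ubiquitin ligase that marks misfolded proteins for the proteasome. In each medium the san1 RNA was in channel 2 on arrays 1 to 3 and in channel 1 on arrays 4 to 6, so each dye orientation had 3 arrays. YC arrays 1 to 3 carry YEPD in their description but YC as title and source, and they were grouped as YC. The labels used here do not give the strain, the kind of san1 allele or what YC contains. Whether each array had its own culture is not said either. The p-values therefore cover only array-to-array spread, which may be technical. All values are log2 ratios of san1 over SAN1, and positive values mean higher in san1. The logarithm was taken as base 2, which the table does not state. With the natural logarithm the signs and tests would be the same and the folds larger. An array held 5836 to 6180 log ratios. The direction rests on the SAN1 transcript, which was taken to be lower in san1 and then lay at -4.57 to -2.69 on the YC arrays and -3.94 to -3.39 on the YEPD arrays. The array descriptions word the comparison as SAN1/san1. Were the table in that order, every sign below would turn and the SAN1 transcript would be the higher one in san1. Each value is an average over a culture, in which fewer expressing cells and less RNA per cell cannot be told apart.

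In budding yeast, heme is made only with oxygen and reports its presence. Heme-bound Hap1 activates ROX1, and the Rox1 repressor, together with Tup1 and Cyc8, keeps hypoxic genes such as ANB1, HEM13, AAC3 and COX5B low in air. The DAN, TIR and many PAU genes encode serine- and alanine-rich mannoproteins of the anaerobic cell wall, and the sterol-sensing activator Upc2 drives them when oxygen and sterols are scarce. Most PAU genes lie next to telomeres and are close copies in sequence, so a probe for one can read the RNA of others, and their values are not independent.

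TIR1 and ANB1 fell in both media. COX5B rose in YC, and TIR2, TIR4, AAC3 and 4 PAU genes fell there. In YC, 10 of 31 tested members passed at an adjusted p under 0.05, 9 lower in san1 and 1 higher. Among all 5890 genes 24.8% passed, 11.8% lower and 13.0% higher. In YEPD, 2 of 31 were lower and 0 higher, and among all genes 2.04% passed, 0.323% lower and 1.71% higher. In limma's fit 10 of the 31 had an unadjusted p under 0.05 in YEPD, as did 580 of all 5890 genes. The median change of the 31 was -0.08 in YC and 0.04 in YEPD, where the medians of all genes were -0.0016 and 0.002. For the difference between media, 4 members were lower in YC than in YEPD and 1 was higher, where 9.75% of all genes passed, 4.26% lower and 5.48% higher. Over both media together 5 members were lower and 1 was higher, where 10.4% of all genes passed, 4.5% lower and 5.87% higher. These 6 were TIR1, TIR2, TIR4, ANB1, PAU15 and COX5B.

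**Figure D1:**
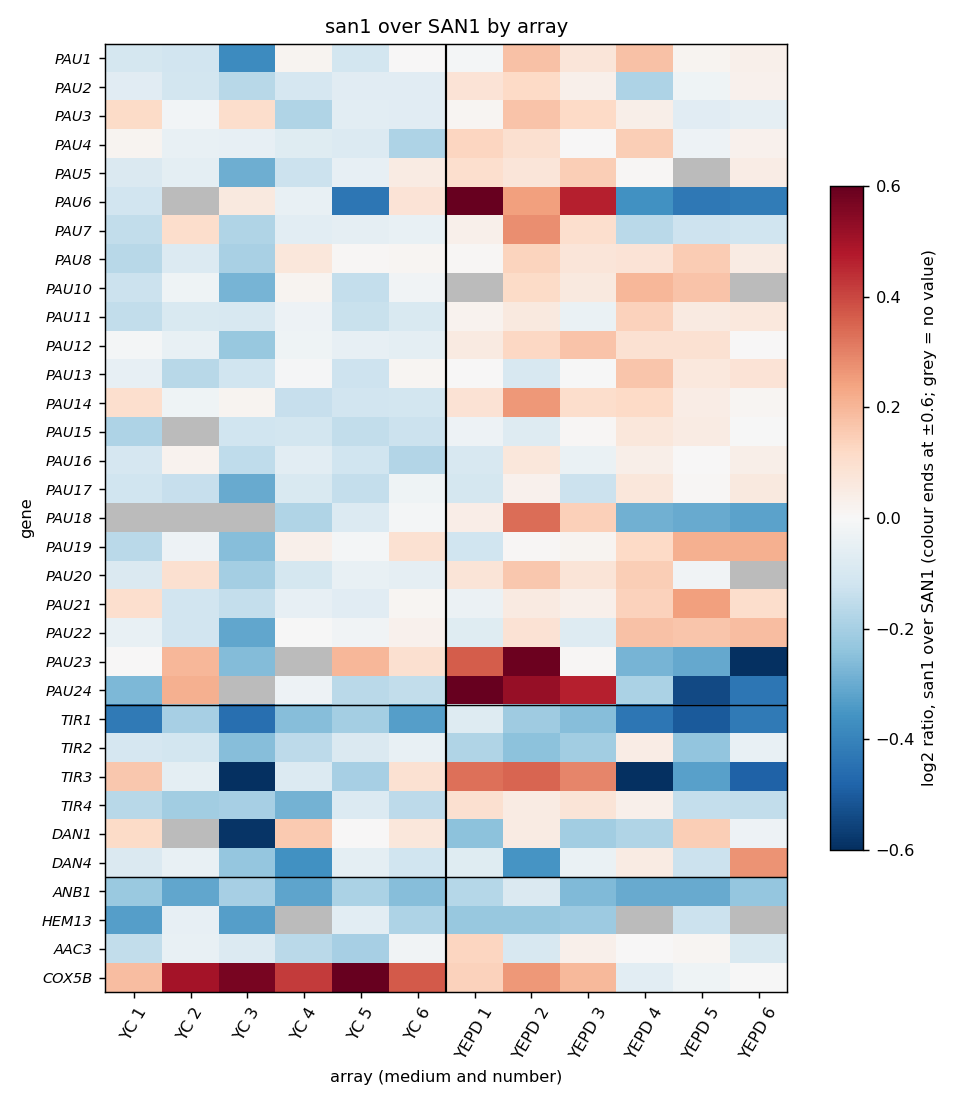
Log2 ratios of san1 over SAN1 for the 33 members with a row (rows, grouped as PAU, TIR and DAN, and hypoxic genes) on the 6 YC arrays (left) and 6 YEPD arrays (right), blue for lower and red for higher in san1. ANB1 and TIR1 are below 0 on 12 of 12 arrays, COX5B is above 0 on all 6 YC arrays, and PAU6, PAU23, PAU24 and TIR3 change sign between YEPD arrays 1 to 3 and 4 to 6.

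TIR1 (YER011W) encodes a mannoprotein of the cell wall that is induced by cold shock and by lack of oxygen. Its ratio was lowest at -0.45, median -0.29 and highest at -0.20 over the 6 YC arrays, and lowest at -0.50, median -0.34 and highest at -0.08 over the 6 YEPD arrays. Every array was thus below 0, and the ranges of the media overlapped. The fitted change was -0.31 in YC (SE 0.0515, limma adjusted p = 0.0015), a 1.24-fold decrease, and -0.32 in YEPD (SE 0.0515, adjusted p = 0.0035), a 1.25-fold decrease. The difference between media was 0.01 (SE 0.0728, adjusted p = 0.96). In YEPD arrays 4 to 6 lay 0.269 lower than arrays 1 to 3, without overlap, and all 6 were below 0.

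The other TIR genes encode mannoproteins of the same anaerobic wall. TIR2 (YOR010C) ranged from -0.26 to -0.05 on the YC arrays (median -0.10) and from -0.25 to 0.04 on the YEPD arrays (median -0.19). It was below 0 on 11 of 12 arrays, with YEPD array 4 above 0. It was lower in YC (-0.13, SE 0.0371, adjusted p = 0.026), stood at -0.15 in YEPD (SE 0.0371, adjusted p = 0.076) and passed over both media (-0.14, SE 0.0262, adjusted p = 0.0061). Its call in YC was lost when any of YC arrays 3 to 6 was left out, with an adjusted p of up to 0.091 and values of -0.13 to -0.11 in those fits. Without YEPD array 4, and under quantile scaling, TIR2 also passed in YEPD, with adjusted p down to 0.028.

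TIR4 (YOR009W) lies beside TIR2 on chromosome XV. Its 6 YC arrays lay between -0.28 and -0.08 (median -0.18), whereas its YEPD arrays lay between -0.15 and 0.09 (median 0.04), with YEPD arrays 5 and 6 below 0. The ranges overlapped through those arrays. TIR4 was lower in YC (-0.18, SE 0.0367, adjusted p = 0.0045), and the YEPD estimate was -0.01 (adjusted p = 0.98). The difference between the media was -0.18 (SE 0.0519, adjusted p = 0.051), just outside the threshold, and it passed without YEPD array 5, without YC array 5, among complete genes and with a dye term per medium (adjusted p down to 0.033). AUS1, a sterol importer gene on the other side of TIR2, had too few values to be tested. It ranged from -0.15 to -0.01 on 5 YC arrays and from 0.05 to 0.27 on 4 YEPD arrays, without overlap.

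TIR3 (YIL011W) was among the least precise members. Its YC arrays ranged from -0.97 to 0.16 (median -0.07) and its YEPD arrays from -0.64 to 0.35 (median -0.02), so the media overlapped almost entirely. In YEPD it was at 0.29 to 0.35 on arrays 1 to 3 and at -0.64 to -0.32 on arrays 4 to 6. The sign of its ratio therefore followed the dye orientation there. The fitted change was -0.18 in YC (SE 0.147, adjusted p = 0.41) and -0.08 in YEPD (SE 0.147, adjusted p = 0.94). The residual SD of TIR3, 0.423, lay at percentile 99 of all tested genes, where the median gene had 0.102.

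DAN1 (YJR150C) and DAN4 (YJR151C), neighbouring genes on chromosome X for wall mannoproteins made almost only without oxygen, passed in neither medium. DAN1 was at 0.0046 to 0.16 on 4 YC arrays and at -0.59 on YC array 3, and it ranged from -0.25 to 0.15 over the YEPD arrays. Its fitted change was -0.07 in YC (SE 0.0857, adjusted p = 0.59) and -0.08 in YEPD (SE 0.0775, adjusted p = 0.86). DAN4 was below 0 on 6 of 6 YC arrays (-0.36 to -0.04) and on 4 of 6 YEPD arrays (-0.35 to 0.27). It stood at -0.15 in YC (SE 0.0631, adjusted p = 0.097) and at -0.04 in YEPD (SE 0.0631, adjusted p = 0.92). As a class, the 6 TIR and DAN genes had a median of -0.16 in YC and -0.08 in YEPD, with 6 of 6 below 0 in each. These signs rested in part on single arrays. Without YC array 3, TIR3 (0.03) and DAN1 (0.07) were above 0 in YC and the YC median was -0.12. In YEPD 1 of the 6 was above 0 without array 2 (DAN4), 4 (TIR3), 5 or 6 (TIR4 in both), at up to 0.02, with class medians of -0.13 to -0.04. Of the 6, 3 were called lower in YC, where 11.8% of all genes were, and 1 in YEPD, where 0.323% were.

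**Figure D2:**
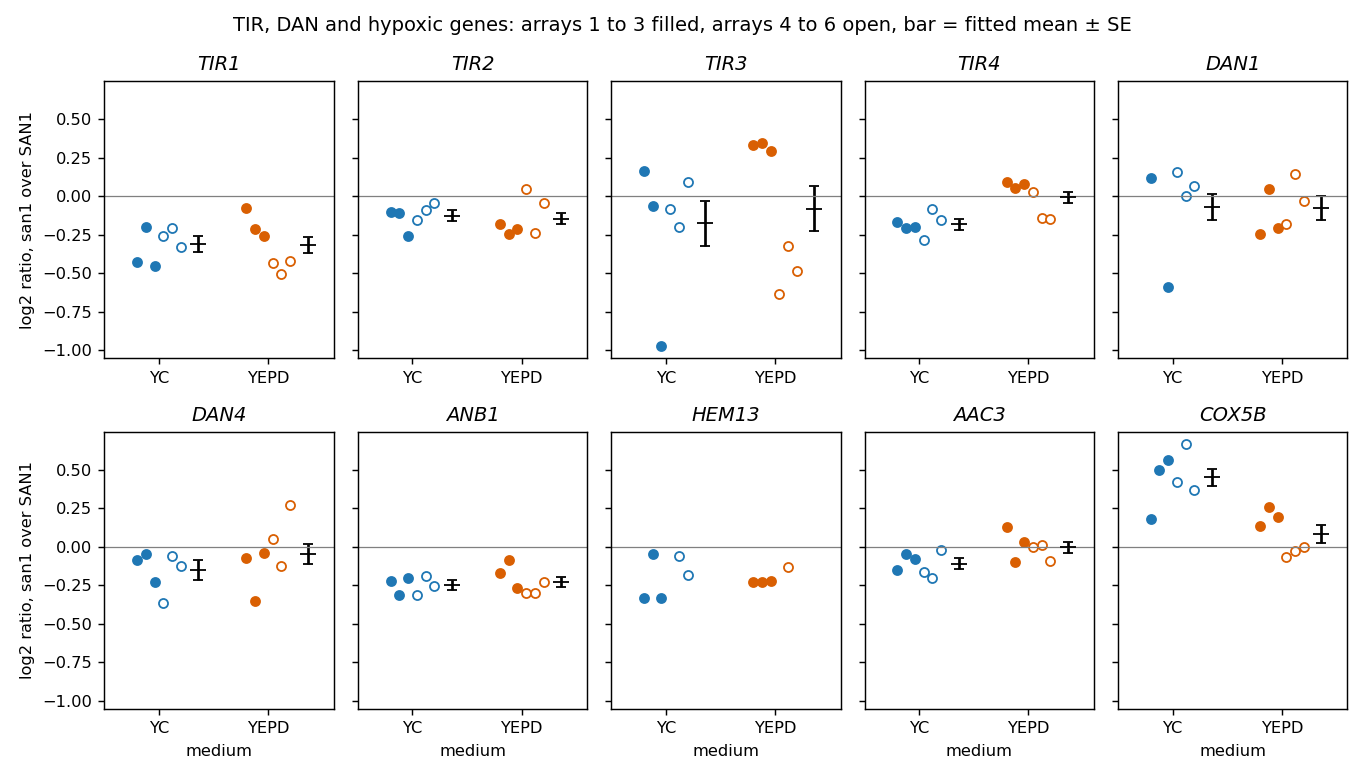
Log2 ratio of san1 over SAN1 on each array for the TIR, DAN and hypoxic genes, YC left of YEPD, with arrays 1 to 3 filled and arrays 4 to 6 open, and the fitted mean ± SE as a bar (none for HEM13, which was not tested). TIR1, ANB1 and HEM13 lie below 0 on every array that measured them, COX5B lies higher in YC than in YEPD, and TIR3 in YEPD splits by dye orientation.

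Wall mannoproteins that aerobic cells make were set beside these genes. Of 6 such genes (CWP1, CWP2, SED1, TIP1, CCW12 and CCW14), 1 rose in YC (16.7%, against 13.0% of all genes). In YC 0 fell, against 11.8% of all genes, and in YEPD 0 passed, against 2.04%. In limma's fit 0 of the 6 had an unadjusted p under 0.05 in YEPD, where 580 of all 5890 genes did. SED1, encoding an abundant stress-induced wall protein, stood at 0.21 in YC (SE 0.0568, adjusted p = 0.019) and 0.07 in YEPD (adjusted p = 0.79). TIP1, related to the TIR genes by sequence, stood at -0.12 in YC (adjusted p = 0.27) and -0.02 in YEPD (adjusted p = 0.97).

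Among the hypoxic genes, ANB1 and COX5B moved in opposite directions. ANB1 (YJR047C) encodes the hypoxic form of the translation factor eIF5A. It ranged from -0.31 to -0.19 on the YC arrays (median -0.24) and from -0.30 to -0.09 on the YEPD arrays (median -0.25). All 12 arrays were below 0, and the media overlapped. The decrease was 1.19-fold in YC (-0.25, SE 0.0318, adjusted p = 0.00029) and 1.17-fold in YEPD (-0.23, SE 0.0318, adjusted p = 0.0012). The difference between them was -0.02 (SE 0.045, adjusted p = 0.77). ANB1 kept its call under each of the 26 alternative settings run for either medium, with values of -0.27 to -0.23 in YC and -0.25 to -0.21 in YEPD.

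HYP2, the aerobic eIF5A gene, is close to ANB1 in sequence, so the probes may read both RNAs. It was lower as well, at -0.18 in YC (SE 0.0401, adjusted p = 0.0067, below 0 on 5 of 6 arrays) and -0.19 in YEPD (SE 0.0401, adjusted p = 0.022, below 0 on 6 of 6). CYC1, the gene for the aerobic form of cytochrome c and the chromosomal neighbour of ANB1, rose on all 12 arrays, by 0.67 in YC (SE 0.0711, adjusted p = 8.6e-05) and 0.46 in YEPD (SE 0.0711, adjusted p = 0.0027). ANB1 and CYC1 thus differed in sign in both media. TAH11, on the other side of ANB1, stood at -0.10 in YC (adjusted p = 0.061) and 0.15 in YEPD (adjusted p = 0.055), a difference of -0.25 (SE 0.052, adjusted p = 0.015).

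COX5B (YIL111W) encodes the hypoxic form of subunit V of cytochrome c oxidase. Over the YC arrays its lowest value was 0.18, the median 0.46 and the highest 0.67. Over the YEPD arrays they were -0.06, 0.07 and 0.26, with arrays 1 to 3 above and arrays 4 to 6 just below 0. The media overlapped only through YC array 1 and YEPD arrays 2 and 3. COX5B rose 1.37-fold in YC (0.45, SE 0.0567, adjusted p = 0.00027), and the YEPD estimate was 0.08 (SE 0.0567, adjusted p = 0.74). The change in YC exceeded that in YEPD by 0.37 (SE 0.0802, adjusted p = 0.018), and this difference was lost without YEPD array 4 (0.34, adjusted p = 0.054). COX5A, its aerobic counterpart, stood at 0.01 in YC (SE 0.0534, adjusted p = 0.91) and 0.04 in YEPD (SE 0.0534, adjusted p = 0.92).

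AAC3 (YBR085W) encodes the hypoxic ADP/ATP carrier of the mitochondrial inner membrane. It was at -0.20 to -0.02 on the YC arrays, all below 0, and at -0.10 to 0.13 on the YEPD arrays, on both sides of 0. It was lower in YC (-0.11, SE 0.0346, adjusted p = 0.036), and the YEPD estimate was -0.0024 (SE 0.0346, adjusted p = 0.99). The call in YC was lost without YC array 1, 3, 4 or 5, with an adjusted p of up to 0.10 and values of -0.11 to -0.09 in those fits. PET9, the main carrier gene of aerobic cells, stood at 0.11 in YC (adjusted p = 0.065) and 0.07 in YEPD (adjusted p = 0.65). AAC1, a minor carrier gene, stood at -0.10 in YC (adjusted p = 0.051) and 0.06 in YEPD (adjusted p = 0.73).

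HEM13 (YDR044W) encodes coproporphyrinogen oxidase, the oxygen-requiring enzyme of heme synthesis. It was measured on 9 arrays and below 0 on all of them. The YC values were -0.33, -0.05, -0.33, -0.06 and -0.19 on arrays 1, 2, 3, 5 and 6, and the YEPD values were -0.23, -0.23, -0.22 and -0.13 on arrays 1, 2, 3 and 5. When 1 value per orientation and medium was enough for the test, HEM13 stood at -0.18 in YC (SE 0.0453, adjusted p = 0.018) and -0.17 in YEPD (SE 0.0531, adjusted p = 0.22). Of the other 5 heme synthesis genes tested, HEM1, for the enzyme of the opening step, was lower in YC (-0.15, SE 0.0375, adjusted p = 0.011). This was 20.0%, against 11.8% of all genes, and 4 did not pass. In YEPD 0 of the 5 passed, against 2.04% of all genes. In limma's fit 0 of the 5 had an unadjusted p under 0.05 there, where 580 of all 5890 genes did.

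The PAU family shifted slightly and differently in the media. In YC, 21 of 22 tested PAU genes had a fitted change below 0, the median was -0.07, and 4 passed, all lower (18.2%, against 11.8% of all genes). In YEPD, 20 of 22 were above 0 and the median was 0.08. None of the 22 passed there in limma's fit, and 7 had an unadjusted p under 0.05, as did 580 of all 5890 genes. Without YC array 3 the YC median was -0.05, with 20 of 22 below 0. The lowest gene in YC was PAU15 (-0.14) and the highest PAU23 (0.01). In YEPD the lowest was PAU23 (-0.07) and the highest PAU6 (0.14). For the difference between media, 21 of 22 were below 0 with a median of -0.14, against 3096 of 5890 and -0.0076 among all genes, and 4 passed, all lower in YC (18.2%, against 4.26%). Because the copies can share RNA on the probes, these counts do not stand for as many separate genes.

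**Figure D3:**
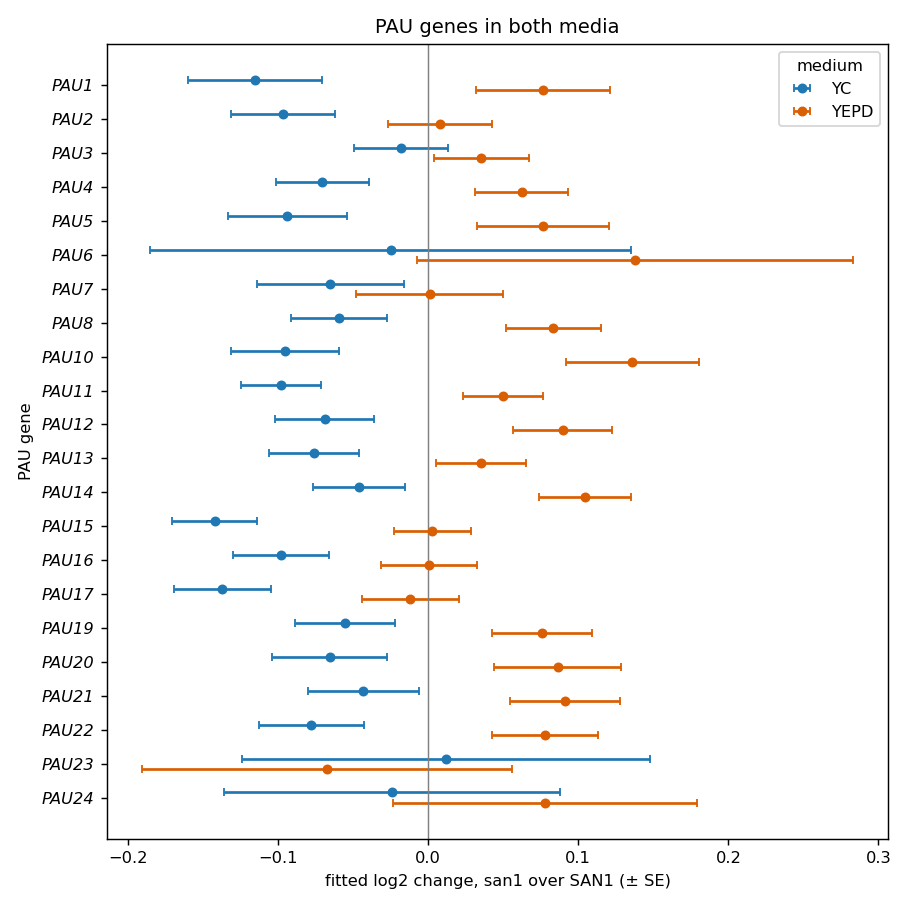
Fitted log2 change of san1 over SAN1 (± SE) of the 22 tested PAU genes in YC (blue) and YEPD (orange). In YC 21 of 22 lie below 0 and in YEPD 20 of 22 lie above 0, and the bars of PAU6, PAU23 and PAU24 are several times wider than those of the other copies.

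PAU15 and PAU17 were the PAU genes with the lowest p in YC. PAU15 (YIR041W) was at -0.18 to -0.11 on 5 YC arrays (median -0.13) and at -0.08 to 0.07 on the YEPD arrays (median 0.0019). The media did not overlap. It was lower in YC (-0.14, SE 0.0285, adjusted p = 0.0049), and the YEPD estimate was 0.0029 (SE 0.0258, adjusted p = 0.99). PAU17 (YLL025W), which lies 39 genes from its chromosome end, was at -0.30 to -0.03 on the YC arrays (median -0.13) and at -0.13 to 0.07 on the YEPD arrays (median 0.02). It was lower in YC (-0.14, SE 0.0324, adjusted p = 0.0095), and both calls held under each alternative that could be run for them.

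The calls of PAU11 and PAU16 in YC were less stable. PAU11 (YGL261C) was below 0 on 6 of 6 YC arrays (-0.15 to -0.03) and at -0.04 to 0.14 on the YEPD arrays, with a fitted change of -0.10 in YC (SE 0.0266, adjusted p = 0.018). Its call was lost without YC array 5 or 6, with an adjusted p of 0.057 and values of -0.09 and -0.08. PAU16 (YKL224C) was at -0.17 to 0.02 on the YC arrays and -0.09 to 0.07 on the YEPD arrays, with a fitted change of -0.10 in YC (SE 0.032, adjusted p = 0.04). Leaving out any of YC arrays 1, 3, 4, 5 and 6 or YEPD arrays 3 to 6 ended that call, with an adjusted p of up to 0.14 and values of -0.11 to -0.08 in those fits.

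PAU10, PAU11, PAU14 and PAU15 differed between media. PAU10 (YDR542W) was at -0.28 to 0.02 on 6 YC arrays and at 0.06 to 0.20 on 4 YEPD arrays, without overlap, a difference of -0.23 (SE 0.0571, adjusted p = 0.033). PAU14 (YIL176C) was at -0.14 to 0.10 on the YC arrays and 0.01 to 0.26 on the YEPD arrays, a difference of -0.15 (SE 0.0435, adjusted p = 0.047). For PAU11 the difference was -0.15 (SE 0.0375, adjusted p = 0.031) and for PAU15 it was -0.15 (SE 0.0384, adjusted p = 0.037). The arrays of the media did not overlap for PAU10, PAU12 and PAU15, 13.6% of the PAU genes, and in each the YC arrays were lower. Over the 31 members this was 9.68%, and 0 had YC arrays wholly higher. Among all genes 1.87% had YC arrays wholly lower and 2.12% wholly higher.

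Each of these calls lay near the threshold and was lost when some single arrays were left out. PAU10 lost its call without any of the YEPD arrays or YC array 3, 5 or 6 (adjusted p up to 0.091, values -0.24 to -0.20). It has no value on YEPD arrays 1 and 6, so without them only the fit over all genes changed. PAU11 lost its call without YEPD array 1, 4 or 6 or YC array 3, 5 or 6 (adjusted p up to 0.081, values -0.15 to -0.13). For PAU14 this held for any YEPD array and YC arrays 2 to 6 (adjusted p up to 0.12, values -0.17 to -0.13). PAU15 lost its call without YEPD array 1, 3, 4, 5 or 6 or YC array 1, 3, 4, 5 or 6 (adjusted p up to 0.098, values -0.16 to -0.13). It has no value on YC array 2. All 4 were below 0 in every such fit. With YEPD arrays 4 and 6 averaged, all 4 lost their calls as well.

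The family median on single arrays followed the medium. On YC arrays 1 to 6 the median of the tested PAU genes was -0.09, -0.05, -0.18, -0.05, -0.08 and -0.04. On YEPD arrays 1 to 6 it was 0.02, 0.12, 0.05, 0.09, 0.02 and 0.03. All YC arrays lay below all YEPD arrays. This was not particular to the PAU genes. The median of the other tested genes at chromosome ends separated the media too. It was -0.04 to 0.02 on the YC arrays and 0.03 to 0.10 on the YEPD arrays. For the PAU genes YC array 3 was lowest, and 18 of the 21 PAU genes measured on it were below 0. The other genes at chromosome ends were lowest on YC array 6 (-0.04) and stood at -0.01 on YC array 3.

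PAU genes near and away from chromosome ends were close in YC. The 17 PAU genes among the 10 outermost genes of a chromosome end had a median of -0.07 in YC and 0.08 in YEPD, and the 5 located farther in (PAU2, PAU5, PAU7, PAU17 and PAU23) had -0.09 in YC and 0.0011 in YEPD. The difference between these sets was not tested. Of 257 other genes at chromosome ends, 35 rose and 36 fell in YC and 40 rose and 1 fell in YEPD. For the difference between media, 181 of the 257 were below 0, the median was -0.06, and 24 were lower in YC (9.34%). For the 17 PAU genes near ends these values were 17 of 17, -0.15 and 4.

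Direct neighbours of PAU genes at Y' elements were higher in san1. Y' elements are repeats at chromosome ends that encode close copies of a helicase. YRF1-1, next to PAU10, rose in YC (0.30, SE 0.0376, adjusted p = 0.00026) and in YEPD (0.28, SE 0.0376, adjusted p = 0.00096). YRF1-7 beside PAU22 stood at 0.29 in YC (adjusted p = 0.00027) and 0.25 in YEPD (adjusted p = 0.00099), while PAU22 was at -0.08 in YC (adjusted p = 0.12) and 0.08 in YEPD (adjusted p = 0.49). YJL225C beside PAU1 and YIL177C beside PAU14 rose in both media too, by 0.24 to 0.29, whereas neither PAU gene passed in either medium. PAU17 lies between the chaperone genes SSA2 and HSP104. SSA2 rose by 0.32 in YC (adjusted p = 0.0014) and 0.27 in YEPD (adjusted p = 0.012), and HSP104 by 0.46 in YC (adjusted p = 0.0025). In YEPD HSP104 stood at 0.14 and did not pass (SE 0.084, adjusted p = 0.7). On YC arrays 1 and 4 HSP104 was at 0.13 and 0.07, and on the other YC arrays at 0.53 to 0.72. Of 51 tested neighbours of members, 14 rose and 4 fell in YC, and 10 rose and 0 fell in YEPD. The shares of higher calls were 27.5% and 19.6%, against 13.0% and 1.71% of all genes. The 4 that fell in YC were ARN2 beside PAU13 (-0.31), YLR460C beside PAU4 (-0.21), TCA17 beside PAU2 (-0.16) and CDC15 beside PAU7 (-0.13). Their adjusted p was 0.0028, 0.0053, 0.033 and 0.02. Among the other genes at chromosome ends, which include some of the 51 neighbours, 13.6% rose in YC and 15.6% in YEPD. Several of the neighbours that rose are close copies of the Y' helicase, so the counts do not stand for as many separate genes.

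**Figure D4:**
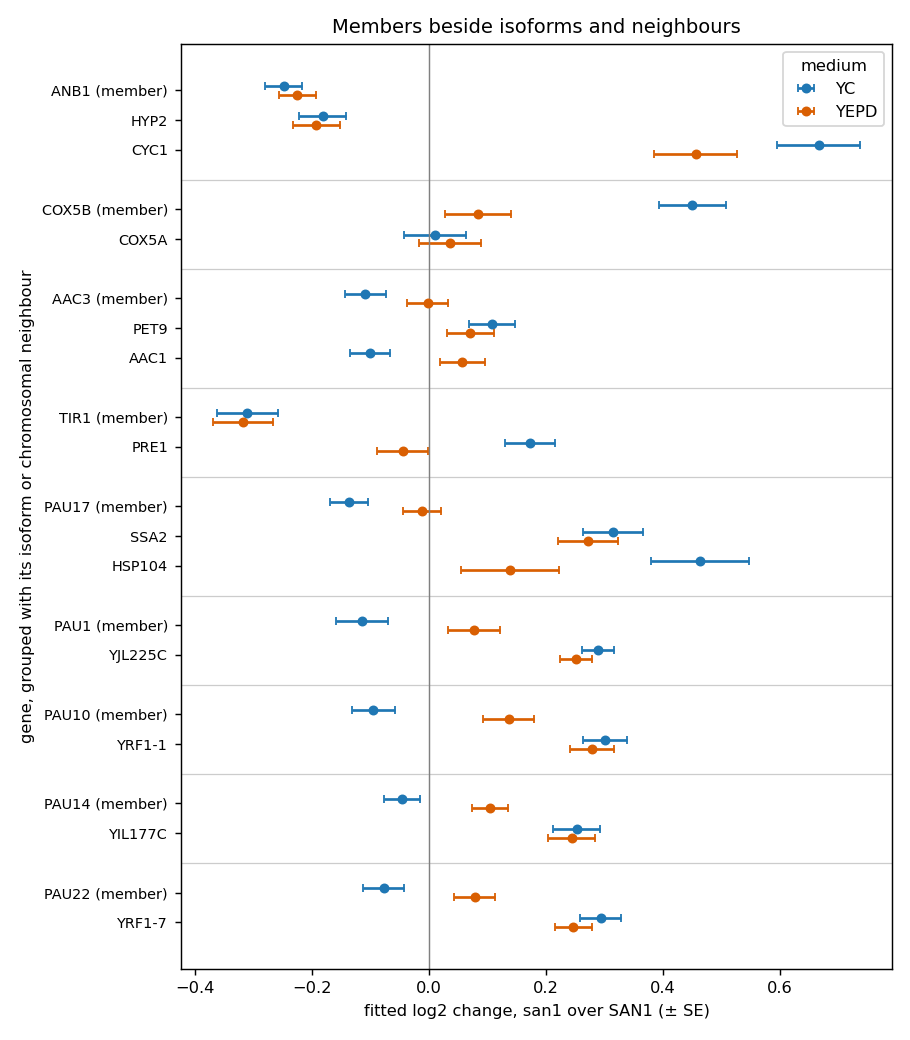
Fitted log2 change of san1 over SAN1 (± SE) in YC (blue) and YEPD (orange) for members and, below each, a gene for the alternative form of the protein or a chromosomal neighbour. The neighbours are a selection, without the 4 that fell in YC. CYC1 beside ANB1, SSA2 and HSP104 beside PAU17 and the Y' helicase genes beside PAU1, PAU10, PAU14 and PAU22 lie above 0.

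For 5 members the YEPD ratio differed widely between the dye orientations. The mean of YEPD arrays 1 to 3 exceeded that of arrays 4 to 6 by 1.08 for PAU6, 0.933 for PAU24, 0.806 for TIR3, 0.774 for PAU23 and 0.478 for PAU18. In YC these gaps were 0.105 for PAU6, 0.085 for PAU24, -0.225 for TIR3 and -0.168 for PAU23. PAU6 was at 1.32 on YEPD array 1, 0.25 and 0.47 on arrays 2 and 3, and -0.43 to -0.36 on arrays 4 to 6. PAU18 was at 0.04 to 0.34 on YEPD arrays 1 to 3, at -0.32 to -0.29 on arrays 4 to 6 and at -0.18 to -0.01 on YC arrays 4 to 6, with no value on YC arrays 1 to 3. Of 28 members complete in YEPD, 13 had orientations that did not overlap (46.4%), close to the 51.5% of all complete genes, and in YC it was 6 of 26 (23.1%) against 16.8%. The common dye term passed for 4 of 31 members (PAU3, PAU19, PAU22 and PAU24), against 16.4% of all genes. With a dye term per medium 8 members passed for the difference between media, and PAU10, PAU11, PAU14, PAU15 and COX5B were among them.

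**Figure D5:**
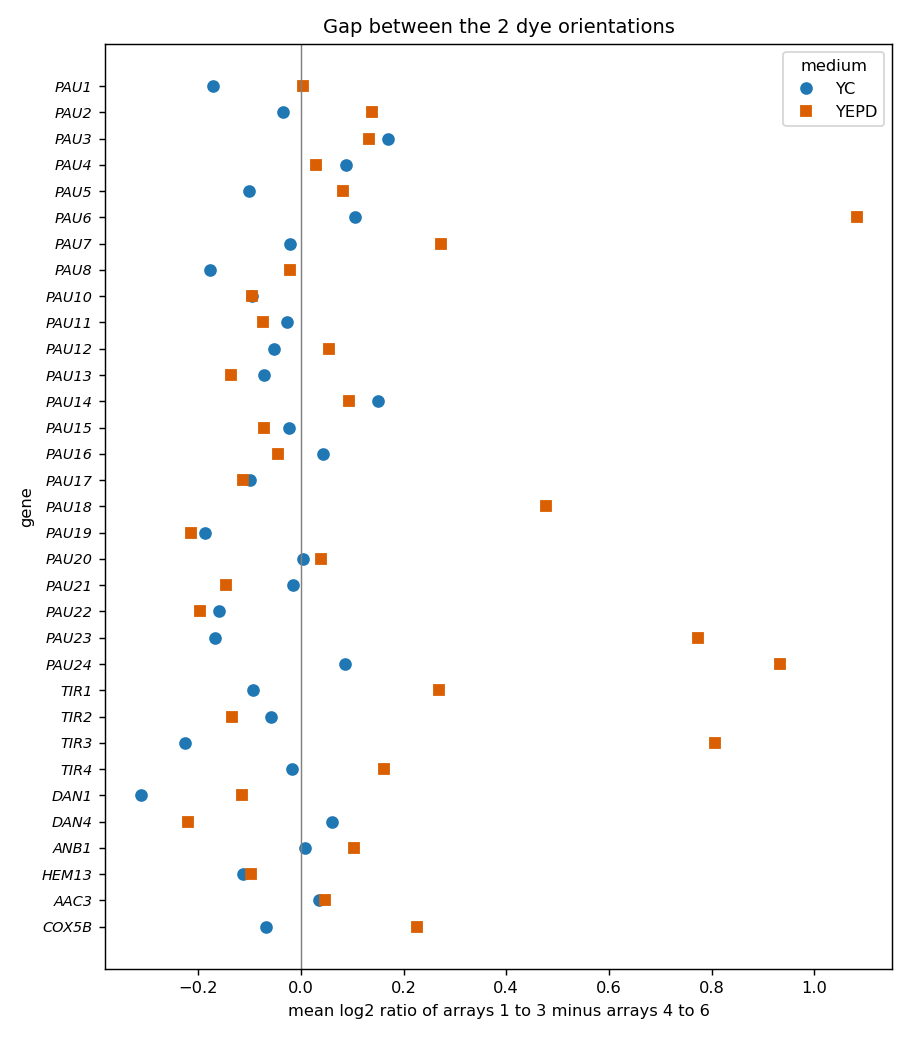
Mean log2 ratio of arrays 1 to 3 minus that of arrays 4 to 6, after turning all arrays to san1 over SAN1, for each member in YC (circles) and YEPD (squares). PAU6, PAU18, PAU23, PAU24 and TIR3 have YEPD gaps of 0.478 to 1.08, and PAU18 has no YC gap because YC arrays 1 to 3 lack a value for it.

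Of 12 tested regulators of these genes, 2 fell (16.7%, against 11.8% of all genes) and 0 rose (against 13.0%) in YC. In YEPD 0 of the 12 passed, against 2.04% of all genes. In limma's fit 2 of the 12 had an unadjusted p under 0.05 there, where 580 of all 5890 genes did. ECM22, a sterol-responsive activator related to Upc2, was lower in YC (-0.26, SE 0.0358, adjusted p = 0.00053), and the YEPD estimate was -0.07 (adjusted p = 0.6), a difference of -0.19 (SE 0.0506, adjusted p = 0.037). In YEPD its sign followed the dye orientation. ECM22 was at -0.26 to -0.22 on YEPD arrays 1 to 3 and at 0.08 to 0.12 on arrays 4 to 6. SUT1, a regulator of sterol uptake that relieves Cyc8-Tup1 repression, was lower in YC (-0.15, SE 0.0339, adjusted p = 0.0075), and the YEPD estimate was 0.04 (adjusted p = 0.8), with a difference of -0.19 (SE 0.0479, adjusted p = 0.03). HAP1 was lower over both media (-0.28, SE 0.0712, adjusted p = 0.025), at -0.25 in YC (adjusted p = 0.091) and -0.32 in YEPD (adjusted p = 0.19), with 10 of 12 arrays below 0. ROX1 was at -0.06 in YC (adjusted p = 0.5) and 0.14 in YEPD (adjusted p = 0.35), and UPC2 was at -0.03 in both (adjusted p = 0.54 and 0.9).

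Other genes known to rise at low oxygen or low sterol lay mostly below 0 in YC, at 12 of 14 tested, with a median of -0.09. Of the 14, 6 fell and 1 rose in YC (42.9% lower and 7.14% higher, against 11.8% and 13.0% of all genes). In YEPD 8 of the 14 were below 0 and the median was -0.0061. There 1 fell and 1 rose (7.14% each, against 0.323% lower and 1.71% higher among all genes). ERG11, the lanosterol demethylase gene, was lower in YC (-0.24, SE 0.0382, adjusted p = 0.0011) and in YEPD (-0.17, SE 0.0382, adjusted p = 0.041), on 12 of 12 arrays. ERG26, another sterol demethylation gene, rose in YC (0.21, SE 0.0356, adjusted p = 0.0016) and in YEPD (0.19, SE 0.0356, adjusted p = 0.012), also on 12 of 12 arrays. ARE1, a sterol acyltransferase gene, was at -0.19 in YC (adjusted p = 0.013), and ERG3, the sterol desaturase gene, at -0.13 (adjusted p = 0.012). FET4, a low-affinity iron and copper transporter gene repressed by Rox1, was lower in YC (-0.28, SE 0.0793, adjusted p = 0.021) and differed between media (-0.38, SE 0.112, adjusted p = 0.049). Its YC estimate rested largely on YC arrays 1 and 4, at -0.70 and -0.60, with the other YC arrays at -0.17 to -0.01. Those arrays are the ones left out together in the checks below. Among the alternative protein forms, CYC7, the hypoxic cytochrome c gene, rose with CYC1 in YC (0.39, SE 0.0535, adjusted p = 0.00081). HMG1, the HMG-CoA reductase gene used in air, rose in YC (0.27, adjusted p = 0.0059) and YEPD (0.43, adjusted p = 0.00095), while HMG2, its low-oxygen counterpart, was at -0.01 in YC and 0.10 in YEPD and did not pass.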

How the data were processed

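The authors' deposited values are log ratios, one for every spot of an array, read here as log2. Column medians lay at -0.0029 to 0.0033. No label says how the scans were background-corrected and normalized or which base the logarithm has. The SAN1 row led to reading the ratio as channel 2 over channel 1, and all arrays were turned to san1 over SAN1. Names and gene order came from the RefSeq gene table (assembly R64), which matched 5704 of 6204 rows by locus tag and 42 by synonym. No sequences were searched.

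Arrays were median-centred and rows of 1 gene were averaged. Genes needed 2 values per dye orientation and medium, which kept 5890 and removed 287. A mean per medium and 1 dye term were fitted per gene with limma 3.58.1 in R 4.3.3 (two-sided, Benjamini-Hochberg over all 5890 genes, threshold 0.05), after a test on simulated data. The 4 contrasts were each medium, their difference (YC minus YEPD) and their mean. Named genes were called members, the TIR, DAN and hypoxic genes, the lowest and highest PAU genes, and companion genes called (up to 4 a list and contrast by p) or paired with a member. MIX23, DOT5, YBL111C and SUR2 met this rule but are not described, and the other genes at chromosome ends are given as counts and medians. ROX1, UPC2, HMG2, TIP1, TAH11, YIL177C, SSA2, HSP104, ARN2, TCA17 and CDC15 were added after their values were seen, although TAH11 also met the rule. Members and lists were chosen with earlier results of these data known. Precision is limited by 6 arrays per medium. Alternatives covered scaling, the dye term, the arrays used, the array number as a block, averaging, filters and variances, and each array left out.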

Additional observations from a re-analysis of the deposited data

Results flagged for a closer look

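YC array 3 stood apart from the other YC arrays for 4 members. TIR3 was at -0.97 there, against -0.20 to 0.16 on the other 5 arrays. DAN1 was at -0.59 on it, against 0.0046 to 0.16 on the other 4. PAU1 was at -0.38 (others -0.12 to 0.02), and PAU12 was at -0.23 (others -0.06 to -0.01). HEM13 on YEPD array 5 was at -0.13, away from 3 values of -0.23 to -0.22. These were 5 of 65 groups of arrays examined for a single distant value, of which chance gives about 1 in 20, and the PAU copies share sequence.

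The change in san1 differed between media in 5 members by the test of the difference itself. COX5B was higher in YC than in YEPD by 0.37 (adjusted p = 0.018). PAU10 (-0.23, adjusted p = 0.033), PAU11 (-0.15, adjusted p = 0.031), PAU14 (-0.15, adjusted p = 0.047) and PAU15 (-0.15, adjusted p = 0.037) were lower in YC. The part that dye, medium batch or array quality may play was not tested beyond the alternatives given under the processing.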

How the results depend on the processing

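No called change of a member changed sign under any alternative run. Of 23 called values, 11 kept their call under every alternative: ANB1 and TIR1 in YC, in YEPD and over both media, COX5B in YC and over both, and TIR4, PAU15 and PAU17 in YC. The count of members called in YC was 10. It was 6 with each medium fitted alone, 6 with arrays n and n plus 3 averaged, and 6 to 11 without single arrays. The count for YC minus YEPD was 5. It was 1 with no dye term, 8 with a dye term per medium, 1 with the replicate block, 1 with YEPD arrays 4 and 6 averaged (chosen after seeing the data) and 0 in limma's fit with arrays n and n plus 3 averaged, where 16 had an unadjusted p under 0.05. Without single arrays it was 0 to 7, 0 being the fit without YEPD array 4 (16 at an unadjusted p under 0.05). In limma's main fit 19 members and 1701 of all 5890 genes had an unadjusted p under 0.05 for this difference. YEPD arrays 4 and 6 were unusually alike. The SD of their difference was 0.106, against 0.154 to 0.247 for other pairs of the same medium and orientation. They may therefore not be independent, which was not tested. In YEPD the count was 2, and 2 to 3 without single arrays. Over both media it was 6, 3 with arrays n and n plus 3 averaged, and 4 to 5 without single arrays. Over both media, TIR4 (-0.09, adjusted p = 0.039) lost its call without YC arrays 1, 2, 3, 4 or 6 or YEPD arrays 2, 3, 5 or 6. PAU15 (-0.07, adjusted p = 0.041) lost its call there without any array except YC array 2, on which it has no value. The array number as a block also left 10 members called in YC, 2 in YEPD and 7 over both media. Same-numbered arrays of the media correlated at -0.32 to 0.18 in their deviations and other numbers at -0.23 to 0.27. The block correlation was -0.176. No pairing of the media by number was seen, but this cannot show that the cultures were unpaired. It does not cover a pairing of arrays n and n plus 3 within a medium. YC arrays 1 and 4, left out together after seeing the data since 6.15% and 7.42% of their values equalled another on the array, gave 7 members in YC and 7 for the difference. Quantile scaling ended the calls of AAC3, TIR2 and PAU16 in YC, of PAU15 between media, and of TIR4 and PAU15 over both. Only 1 of 12 arrays correlated best with its own number. The causes of these changes were not tested, and fits with arrays left out or averaged also had fewer arrays.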

Other observations

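The PAU copies varied together from array to array after the fit. The median pairwise Pearson correlation of residuals over 12 arrays was 0.169 among the 22 PAU genes and 0.216 among the 19 without PAU6, PAU23 and PAU24, a set chosen after their values were seen. It was 0.0012 among the 4652 genes with values on all arrays and 0.05 among the 6 TIR and DAN genes. These points share arrays, and the PAU probes can share RNA. PAU15 and PAU11 had residual SDs of 0.0364 and 0.0444, below 0.102 for the median gene, whereas PAU6 (0.425), PAU23 (0.359) and PAU24 (0.293) had some of the widest spreads in the table.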
